A study of Mus musculus with 18 samples.

Results

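The enzymes that take glucose to lactate, to ribose and to serine were followed in 2 kinds of endothelial cell of the mouse embryo, lymphatic (LEC) and blood vascular (BEC). The set held 38 genes of glucose uptake, glycolysis, the pentose phosphate pathway, serine synthesis and the folate-linked one-carbon enzymes, together with the hypoxia-inducible factors Hif1a and Epas1. A gene was measured through the rows of the array whose annotation names that gene alone, and the brightest such row stood for it. Of the 38 genes, 34 had such a row, out of 19938 genes tested in all. Gpi1, Eno1 and G6pdx had no row of their own, and the 25 rows that list Gapdh list other genes too, so these 4 were not measured.

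Glycolysis splits glucose into pyruvate for a small yield of ATP, and endothelial cells are known to draw most of their ATP from it even where oxygen is at hand. Its intermediates also feed side branches: glucose 6-phosphate enters the pentose phosphate pathway, which makes NADPH and ribose for nucleotides, and 3-phosphoglycerate enters serine synthesis, whose product gives carbon to the folate cycle for purines and thymidylate. Hypoxia-inducible factors bind a short core sequence and are known to raise transcription of many glycolytic genes, among them the transporter Slc2a1 and the dehydrogenase Ldha.

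RNA was measured on 18 Affymetrix mouse gene arrays, 3 for each of 6 groups: each cell type on embryonic day 14.5, 16.5 or 18.5 (written E14.5, E16.5, E18.5). The 3 arrays of a group came from 3 independent litters, per the design text, which describes the LEC and BEC of an age as matched. No genotype, treatment or strain is given in the labels used here, and the tissue is given as embryonic only. Cells were isolated by a protocol that the labels cite without describing, so the surface markers that separated LEC from BEC are not known here.

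The cell type labels went with their markers. All 6 measured lymphatic markers (Prox1 and Lyve1 among them) were higher in LEC and all 8 blood endothelial markers (Flt1 and Notch4 among them) higher in BEC over the 3 ages. Beside these and the next marker counts, 18.2% of all genes tested were higher in LEC and 19.0% lower. The summed linear signal of 7 pan-endothelial markers was 9250 to 9460 in LEC and 15300 to 16000 in BEC at E14.5. At E16.5 it was 10500 to 11500 and 17000 to 18500, and at E18.5 11300 to 13300 and 19000 to 20200. The part of this gap in the differences between LEC and BEC was not tested. Markers of other cells were also present and unequal: all 12 macrophage, all 7 mast cell and all 8 keratinocyte and epithelial markers were higher in LEC, and all 8 mural cell markers were higher in BEC. Of 6 erythroid markers, 3 were lower in LEC, Alas2 (-1.89 ± 0.11) and Slc4a1 (-0.92 ± 0.08) among them, with summed signals of 250 to 291 in LEC and 372 to 478 in BEC at E14.5 and 193 to 219 and 341 to 414 at E18.5. In bulk RNA, fewer cells of a type and less RNA per cell cannot be told apart. Values are log2 intensities from RMA, and a difference is given in log2 units. Values were less widely spread on the E18.5 arrays (interquartile range 3.182 to 3.362 against 3.403 to 3.641 on the earlier ones), a difference that runs through every comparison with that age. Arrays of 1 group correlated at r = 0.976 to 0.992 across all genes. An array has no depth of reads. Each group mean rests on 3 arrays, while the spread behind the standard errors is estimated once per gene over all 6 groups.

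LEC and BEC differed in the levels of several glycolytic isozymes and transporters, and in both most genes of the 3 pathways fell between E14.5 and E18.5. Over the 3 ages, 12 of the 34 measured genes were higher in LEC and 8 were higher in BEC (limma, adjusted p under 0.05). In the same comparison 18.2% of all genes tested were higher in LEC and 19.0% lower. Members are mostly bright, and among the 9969 brighter genes, whose mean lies above the median of all gene means, 28.3% were higher and 30.8% lower. Of the 30 members there, 10 were higher and 7 lower, which lies near those shares. LEC were higher for the glucose transporter Slc2a3, hexokinase Hk2, the phosphofructokinase activator Pfkfb3, the aldolase Aldoc, the enolase Eno2 and the first enzyme of serine synthesis, Phgdh. BEC were higher for the glucose transporter Slc2a1, pyruvate kinase Pkm, the pyruvate dehydrogenase kinase Pdk1, the hypoxia-inducible factor Epas1 and, in the row used, the lactate dehydrogenase subunit Ldhb. With age, 24 of the 34 fell in LEC and 21 fell in BEC from E14.5 to E18.5, where 21.2% and 17.3% of all genes tested fell.

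**Figure D1:**
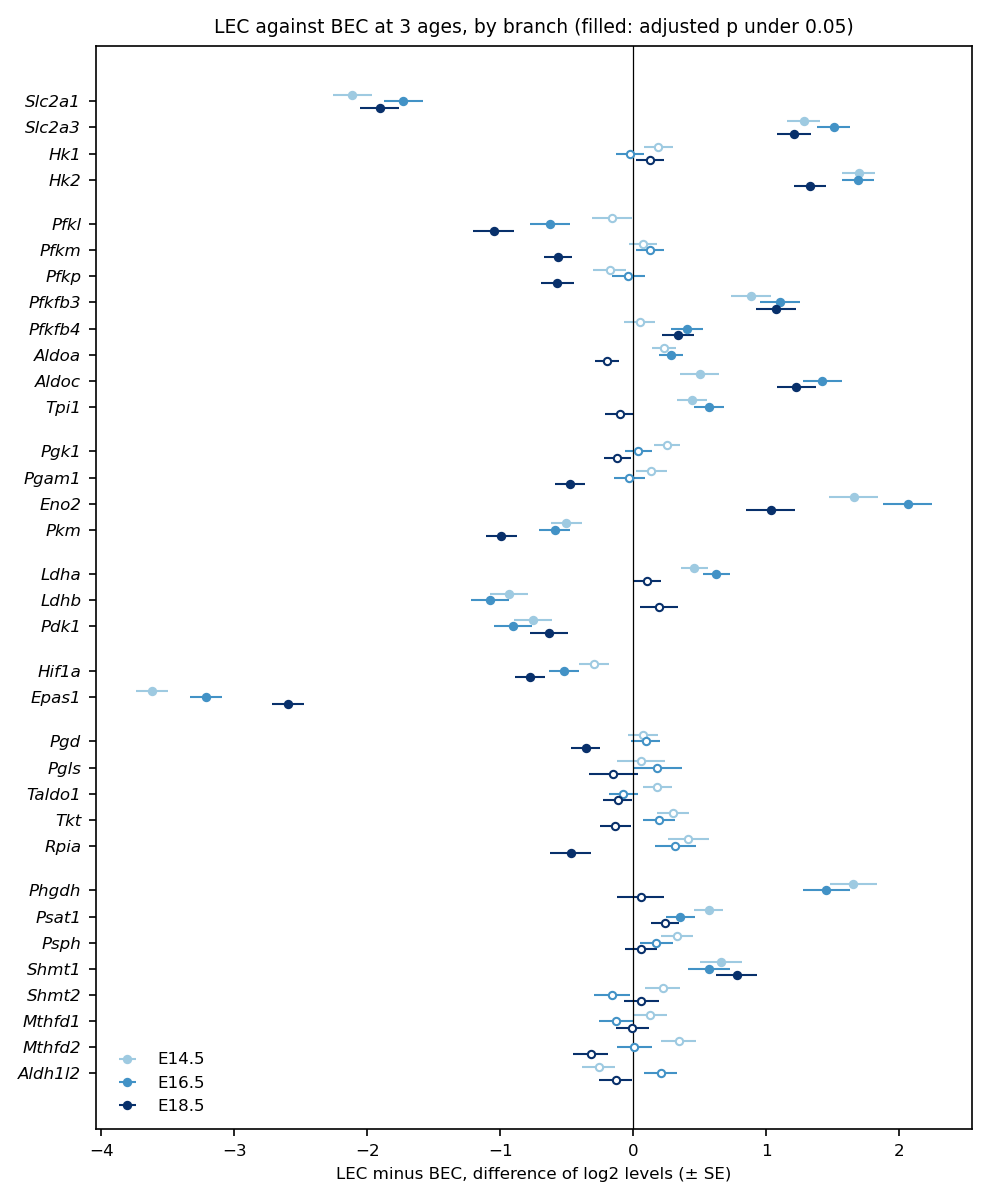
Difference between LEC and BEC in log2 units, LEC minus BEC (horizontal), for each of the 34 measured genes in order of pathway branch (vertical), with 1 point per age, darker for later ages. Bars are standard errors from limma (n = 3 arrays a group) and filled points are called genes; Slc2a1 and Epas1 lie on the BEC side and Slc2a3, Hk2, Pfkfb3 and Eno2 on the LEC side at all 3 ages, while Phgdh is at 1.65 at E14.5 and 0.06 at E18.5.

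The promoters of 4 genes are shown because the comparisons below turn on these genes: the transporter that favoured BEC, the hexokinase and lactate dehydrogenase that favoured LEC, and the first enzyme of serine synthesis. Each sequence is the 250 bases before a transcription start that RefSeq lists for the gene (mouse build GRCm38.p6), read 5′ to 3′ on the gene's own strand. Capitals mark the core that hypoxia-inducible factors recognise, ACGTG or GCGTG, or the same letters read on the other strand.
Slc2a1, chr4:119108495-119108744, plus strand: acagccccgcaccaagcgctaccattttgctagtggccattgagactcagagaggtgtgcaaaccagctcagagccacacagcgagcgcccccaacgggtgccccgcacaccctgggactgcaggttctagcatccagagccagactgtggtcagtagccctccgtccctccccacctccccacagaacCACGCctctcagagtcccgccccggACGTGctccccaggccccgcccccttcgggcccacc
Hk2, chr6:82774455-82774704, minus strand: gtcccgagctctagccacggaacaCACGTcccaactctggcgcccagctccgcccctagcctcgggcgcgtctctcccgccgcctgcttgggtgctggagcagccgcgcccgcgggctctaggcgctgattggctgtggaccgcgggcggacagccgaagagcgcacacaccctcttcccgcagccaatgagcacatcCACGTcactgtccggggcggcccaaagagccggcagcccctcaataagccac
Ldha, chr7:46845554-46845803, plus strand: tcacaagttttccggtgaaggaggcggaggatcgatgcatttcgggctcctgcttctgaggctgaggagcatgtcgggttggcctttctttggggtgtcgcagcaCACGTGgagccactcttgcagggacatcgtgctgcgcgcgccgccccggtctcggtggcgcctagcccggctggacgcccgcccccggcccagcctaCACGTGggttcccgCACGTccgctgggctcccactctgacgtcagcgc
Phgdh, chr3:98339970-98340219, minus strand: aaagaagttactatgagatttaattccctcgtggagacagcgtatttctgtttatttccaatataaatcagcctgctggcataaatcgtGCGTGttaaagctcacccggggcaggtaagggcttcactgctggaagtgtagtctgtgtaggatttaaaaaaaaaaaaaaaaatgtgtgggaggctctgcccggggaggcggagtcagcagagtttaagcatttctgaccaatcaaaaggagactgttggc

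The promoters of Slc2a1, Hk2 and Ldha each held the core more than once, and in Ldha the core lies at several places with both strands matched where it reads CACGTG. The table held 35 of the 38 genes, all but Slc2a3, Epas1 and Aldh1l2, in 50 windows that run from 250 bases before to 50 after a start. The core was present in 40 of these 50 windows (80.0%), against 43.8% of all 32851 windows of the same length. Some windows of a gene overlap, as in Aldoa, Eno1 and Pfkm, so the same match can count in several windows. No background of like base composition was taken, so the shares do not show an excess of sites for the factors. By branch, all 6 pentose phosphate genes, 6 of the 7 serine and one-carbon genes and 7 of the 9 upper glycolysis genes had at least 1 match, against 46.7% of all 27025 genes of the table. A second motif, TGATGNAAN (an ATF4-type site, searched on both strands), was found in 0 of the 50 windows and in 3.95% of all windows. These are matches of letters in a window and carry no measurement of binding. The core was present in all 4 printed promoters, of which Slc2a1 belongs to a gene higher in BEC and Hk2, Ldha and Phgdh to genes higher in LEC.

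RNA levels of the 2 glucose transporters and of the hexokinase Hk2, which traps glucose by phosphorylation, differed between the cell types, in directions that varied by gene. Slc2a1, the transporter known as GLUT1 and abundant in endothelium with a barrier, had log2 levels of 11.48, 11.24 and 11.51 (E14.5), 10.72, 10.84 and 10.69 (E16.5) and 10.17, 10.65 and 10.68 (E18.5) in the BEC arrays. In LEC they were 9.36, 9.41 and 9.13 (E14.5), 8.90, 8.97 and 9.20 (E16.5) and 8.34, 8.80 and 8.65 (E18.5). Every BEC array lay above every LEC array. Averaged over the ages the difference, LEC minus BEC, was -1.92 ± 0.09, adjusted p = 5.5e-13, which is 3.77-fold.

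Slc2a3, the high-affinity transporter GLUT3, ran the other way. Its levels were 7.89, 8.03 and 7.72 (E14.5), 7.79, 7.57 and 7.61 (E16.5) and 7.02, 6.68 and 7.16 (E18.5) in LEC, and 6.78, 6.51 and 6.50 (E14.5), 6.13, 6.16 and 6.16 (E16.5) and 5.61, 5.81 and 5.81 (E18.5) in BEC. At each age the 3 LEC arrays were above the 3 BEC arrays, and the mean difference was 1.33 ± 0.07, adjusted p = 1.2e-11 (2.52-fold). Both transporters fell with age in both cell types, with changes of -0.70 in LEC and -0.91 in BEC for Slc2a1 and of -0.93 and -0.86 for Slc2a3, and the opposite preferences were present at every age.

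Hk2, an inducible hexokinase bound to mitochondria, measured 8.15, 8.06 and 8.20 (E14.5), 7.75, 7.85 and 7.73 (E16.5) and 6.76, 7.27 and 7.15 (E18.5) in LEC. BEC arrays gave 6.50, 6.41 and 6.42 (E14.5), 6.02, 6.17 and 6.06 (E16.5) and 5.69, 5.94 and 5.57 (E18.5). LEC arrays were above BEC arrays at all ages, and the mean difference was 1.57 ± 0.07, adjusted p = 7.6e-13 (2.97-fold). From E14.5 to E18.5 it fell by 1.07 in LEC and by 0.71 in BEC.

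Hk1, the constitutive hexokinase, could not be followed with confidence. Its brightest row has no RefSeq mRNA among its accessions and shares its only accession with all 16 rows that list both Hk1 and Rpl17, a ribosomal protein gene. From E14.5 to E18.5 that row changed by 0.28 in LEC and by 0.34 in BEC, with adjusted p = 0.046 and 0.021. A dimmer Hk1 row that does carry a RefSeq mRNA was at 8.63, 8.77 and 8.58 in LEC at E14.5 and at 8.02, 7.70 and 7.93 at E18.5, where the arrays of the ages did not overlap. In BEC the same row was at 8.62, 8.43 and 8.59 at E14.5 and 8.39, 8.53 and 8.52 at E18.5, where they overlapped. Its age change was -0.78 ± 0.10 in LEC (adjusted p = 4.8e-06 among all single-symbol rows) and -0.07 ± 0.10 in BEC, the opposite sign to the brightest row. The rows were compared after their values were seen, and the call of the brightest row in LEC was lost without any 1 of 11 of the 18 arrays (0.19 to 0.29), all but LEC replicate 3 of E14.5, LEC replicate 2 of E16.5, LEC replicate 3 of E18.5, BEC replicate 2 of E16.5, BEC replicate 1 of E18.5, BEC replicate 2 of E18.5, BEC replicate 3 of E18.5, after the arrays were set to a common median (0.19, adjusted p = 0.17), with array weights (0.28, adjusted p = 0.082), and in a fit of the compared groups alone (0.28, adjusted p = 0.12). In LEC the mean of the gene rows gave the opposite sign (-0.25). In BEC the call was lost without BEC replicate 2 of E14.5 (0.31) or BEC replicate 1 of E18.5 (0.31), and over the mean of the gene rows (0.14, adjusted p = 0.26). The counts of members below keep the brightest row, as the choice of rows sets it.

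In upper glycolysis, from phosphofructokinase to the triose phosphates, 4 of 8 measured genes were higher in LEC and 2 lower over the ages. Of all genes 18.2% were higher and 19.0% lower, and of the brighter genes 28.3% and 30.8%. Pfkfb4 and Aldoc, which were among the 4, do not belong to the brighter genes. The step of phosphofructokinase commits sugar to glycolysis, and all 3 of its subunits were lower in LEC at E18.5. Pfkl, the liver-type subunit, was at 8.96, 8.82 and 9.09 (E14.5), 8.50, 8.15 and 8.62 (E16.5) and 7.38, 7.72 and 7.95 (E18.5) in LEC, and at 9.14, 8.92 and 9.29 (E14.5), 9.01, 9.05 and 9.09 (E16.5) and 8.50, 8.88 and 8.81 (E18.5) in BEC. The cell types overlapped at E14.5, BEC arrays were above LEC arrays at E16.5 and E18.5, and the mean difference was -0.61 ± 0.09, adjusted p = 1.1e-05. Pfkm, the muscle-type subunit, differed by -0.56 ± 0.10 at E18.5 (adjusted p = 0.00035) and by 0.07 ± 0.10 at E14.5 (adjusted p = 0.78). Pfkp, the platelet-type subunit, was lower in LEC, with a difference of -0.26 ± 0.07 over the ages (adjusted p = 0.0069), a call that rested on E18.5: it was lost without the E18.5 arrays (-0.11, adjusted p = 0.33).

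Pfkfb3 makes fructose 2,6-bisphosphate, the activator of phosphofructokinase, and is known as a driver of vessel sprouting. Its levels were 7.83, 7.63 and 7.68 (E14.5), 7.80, 7.73 and 7.32 (E16.5) and 7.72, 8.06 and 7.57 (E18.5) in LEC. In BEC they were 6.84, 6.71 and 6.93 (E14.5), 6.62, 6.54 and 6.38 (E16.5) and 6.44, 6.87 and 6.83 (E18.5). LEC arrays were higher at each age, by 0.89, 1.10 and 1.07 in turn, with a mean of 1.02 ± 0.09, adjusted p = 8.4e-09 (2.03-fold). Unlike most of the set it was not called with age in either cell type (0.07 ± 0.15 in LEC and -0.11 ± 0.15 in BEC, adjusted p = 0.75 and 0.62). The related Pfkfb4 differed by 0.26 ± 0.07 (adjusted p = 0.0046), a call lost without the E18.5 arrays (0.23, adjusted p = 0.056).

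Aldolases cut fructose 1,6-bisphosphate into triose phosphates. Aldoc, the isozyme best known from brain, measured 5.63, 5.83 and 5.61 (E14.5), 6.14, 5.98 and 6.34 (E16.5) and 5.76, 5.72 and 6.32 (E18.5) in LEC. BEC arrays gave 5.40, 5.10 and 5.07 (E14.5), 4.66, 4.68 and 4.86 (E16.5) and 4.59, 4.77 and 4.78 (E18.5), with 3 of all 18 values at or below the level that 95% of olfactory receptor values do not exceed (4.709), a mark of dim signal. The cell types differed by 1.05 ± 0.09, adjusted p = 4.8e-09 over the ages, and the fold of 2.07 is measured against a dim gene whose level in BEC is close to background. Aldoa, the common aldolase, differed by 0.10 ± 0.05 over the ages (adjusted p = 0.14) and was called higher in LEC at E16.5 (0.28 ± 0.09, adjusted p = 0.03), a call lost without BEC replicate 2 of E16.5 (0.27), BEC replicate 3 of E16.5 (0.24), LEC replicate 2 of E16.5 (0.30) or LEC replicate 3 of E16.5 (0.24), and in a fit of the compared groups alone (0.28, adjusted p = 0.06). Tpi1, which interconverts the triose phosphates, had LEC as the higher cell type both at E14.5 (0.44 ± 0.11, adjusted p = 0.0072) and at E16.5 (0.57 ± 0.11, adjusted p = 0.00053), and at E18.5 its difference was -0.10 ± 0.11 (adjusted p = 0.53).

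In lower glycolysis, where ATP is made, 1 of 4 measured genes was higher in LEC and 1 lower, which among 4 genes lies near the 18.2% and 19.0% of all genes tested. Eno2, the enolase named for neurons, had levels of 7.39, 7.60 and 7.17 (E14.5), 7.82, 7.79 and 7.83 (E16.5) and 6.62, 6.36 and 5.92 (E18.5) in LEC. BEC gave 5.79, 5.94 and 5.46 (E14.5), 5.94, 5.67 and 5.64 (E16.5) and 5.53, 4.87 and 5.42 (E18.5). All LEC arrays of an age exceeded all BEC arrays of that age, with a mean difference of 1.58 ± 0.11, adjusted p = 2.8e-10 (3-fold). In LEC it fell by 1.51 between E16.5 and E18.5 (adjusted p = 8.6e-06). Pkm, pyruvate kinase, was at 10.58, 10.63 and 10.49 (E14.5), 10.22, 10.13 and 10.42 (E16.5) and 9.46, 9.60 and 9.85 (E18.5) in LEC, and at 11.16, 10.93 and 11.11 (E14.5), 10.90, 10.82 and 10.82 (E16.5) and 10.51, 10.59 and 10.78 (E18.5) in BEC. LEC arrays were below BEC arrays at all ages, with differences of -0.50 ± 0.12 at E14.5 and -0.99 ± 0.12 at E18.5. The row used for Pkm has no RefSeq mRNA, and the gene's other row gave an age change in LEC minus that in BEC of -0.67 (adjusted p = 0.02) against -0.49 (adjusted p = 0.075) in the row used. Pgk1 and Pgam1, the kinase and mutase of the steps before enolase, differed by 0.06 ± 0.06 and -0.12 ± 0.07 over the ages (adjusted p = 0.48 and 0.17).

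Pyruvate becomes lactate or enters mitochondria, and the enzymes at that fork differed in opposite directions. Ldha, the subunit that favours lactate, had 11.91, 12.07 and 11.84 (E14.5), 11.98, 11.87 and 11.93 (E16.5) and 11.31, 11.29 and 11.41 (E18.5) in LEC, and 11.50, 11.43 and 11.51 (E14.5), 11.36, 11.30 and 11.25 (E16.5) and 11.03, 11.26 and 11.41 (E18.5) in BEC. LEC were higher at E14.5 (0.46 ± 0.10, adjusted p = 0.0028) and E16.5 (0.62 ± 0.10, adjusted p = 8.8e-05), and the arrays overlapped at E18.5, where the difference was 0.10 ± 0.10 (adjusted p = 0.48). Pdk1, which blocks pyruvate dehydrogenase, was lower in LEC, with a difference of -0.77 ± 0.08 over the ages (adjusted p = 2.8e-07), with 6.36, 6.47 and 6.30 (E14.5), 6.49, 5.93 and 6.44 (E16.5) and 6.55, 6.79 and 6.83 (E18.5) in LEC and 7.29, 6.94 and 7.16 (E14.5), 7.13, 7.15 and 7.29 (E16.5) and 7.14, 7.46 and 7.48 (E18.5) in BEC, and every BEC array was above every LEC array.

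Ldhb, the subunit that favours pyruvate, was called different between the cell types at the first 2 ages and not at E18.5, in the row used. Levels were 5.75, 5.78 and 6.28 (E14.5), 5.79, 6.05 and 6.004 (E16.5) and 5.23, 4.91 and 5.26 (E18.5) in BEC, and 4.87, 5.09 and 5.05 (E14.5), 4.74, 4.92 and 4.97 (E16.5) and 5.36, 5.16 and 5.47 (E18.5) in LEC. BEC arrays were higher at the first 2 ages (-0.93 ± 0.14, adjusted p = 6.7e-05 at E14.5, LEC minus BEC), and at E18.5 the difference was 0.19 ± 0.14 (adjusted p = 0.34). Its fall in BEC was -0.80 ± 0.14, adjusted p = 0.00026. A second Ldhb row gave -0.31 for that fall and 0.35 ± 0.36 for the difference of the age changes, neither called, while it too was lower in LEC over the ages, with a difference of -0.71. The change with age is therefore a value of the brighter row alone.

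Of 15 measured genes of lactate export and mitochondrial pyruvate entry, 5 were higher in LEC and 2 lower over the ages, where 18.2% and 19.0% of all genes tested were. Those higher included the monocarboxylate transporters Slc16a7 (1.40 ± 0.14) and Slc16a3 (0.88 ± 0.10), the latter known for lactate export, and the phosphatase Pdp2 (0.78 ± 0.07). Pdk4, a pyruvate dehydrogenase kinase that rises in fasting, was lower in LEC, with a difference of -1.97 ± 0.09. With age in LEC, Slc16a7 rose by 2.35 ± 0.25 while Slc16a3 fell by 1.05. The difference between the age changes was 1.47 ± 0.35 for Slc16a7 and -1.03 ± 0.24 for Slc16a3 (LEC minus BEC, adjusted p = 0.012 and 0.009). Among 12 measured isozymes and regulators outside the set, such as Hk3 and Pfkfb2, 3 were higher and 2 lower in LEC, and among 7 gluconeogenic genes 2 were higher and 2 lower, counts near those shares of all genes. The gluconeogenic fructose bisphosphatases Fbp2 (1.46 ± 0.12) and Fbp1 (0.94 ± 0.08) were the ones higher in LEC.

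**Figure D2:**
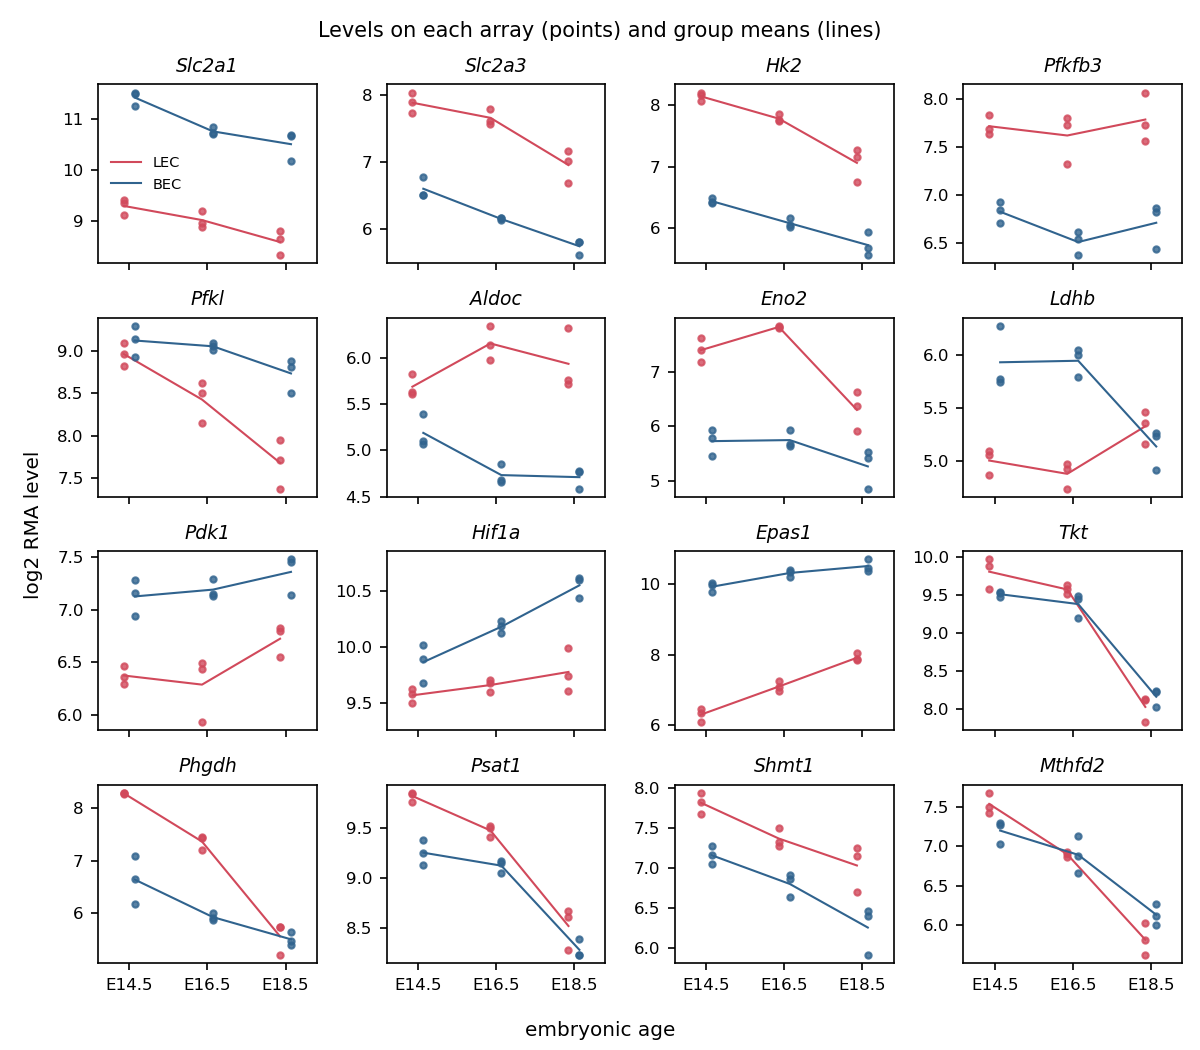
Log2 level on each array for selected genes, LEC and BEC side by side at each age; each point is 1 array and each line joins group means (n = 3). Slc2a1 lies higher in BEC and Slc2a3 and Hk2 higher in LEC at every age, Phgdh in LEC comes down to the BEC level by E18.5, and Tkt falls between E16.5 and E18.5 in both.

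The 2 hypoxia-inducible factors were both lower in LEC in the mean over the ages. Epas1, which encodes HIF-2α and is abundant in endothelium, was at 9.77, 9.98 and 10.02 (E14.5), 10.34, 10.20 and 10.40 (E16.5) and 10.38, 10.70 and 10.45 (E18.5) in BEC. LEC arrays gave 6.45, 6.36 and 6.10 (E14.5), 7.09, 6.96 and 7.25 (E16.5) and 7.87, 8.04 and 7.84 (E18.5). The lowest BEC array was above the highest LEC array, and the mean difference of -3.14 ± 0.07, adjusted p = 7.5e-17 was the largest of the set (8.84-fold). Epas1 rose with age in both, by 1.61 ± 0.12 in LEC and 0.59 ± 0.12 in BEC. Of 8 blood endothelial markers, 4 rose and 2 fell in LEC over the same span, where 19.7% of all genes tested rose and 21.2% fell. The summed signal of these 8 markers in LEC was 969 to 1280 at E14.5 and 1800 to 2360 at E18.5. Their part in the rise of Epas1 was not tested. Hif1a, encoding HIF-1α, differed by -0.53 ± 0.06 over the ages, adjusted p = 1.3e-06. It was called lower in LEC at E16.5 and E18.5 and was not called at E14.5, where the means were 9.565 in LEC and 9.862 in BEC. Hif1a rose in BEC by 0.69 ± 0.11 (adjusted p = 9e-05) against 0.21 ± 0.11 in LEC (adjusted p = 0.15). That pair of age changes differed by -0.48 ± 0.16 (adjusted p = 0.068), which did not pass the threshold.

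Genes around these factors went in both directions. Of 18 regulators and known hypoxia targets, 5 were higher and 7 lower in LEC over the ages (against 18.2% and 19.0% of all genes), with a median of -0.06. Hif3a (-1.72 ± 0.08), the target Ankrd37 (-1.11 ± 0.14) and the prolyl hydroxylase Egln1 (-0.80 ± 0.08), which marks the factors for destruction, were lower, and the hydroxylase Egln3 (0.60 ± 0.16) and Ndrg1 (0.55 ± 0.06) higher. In BEC, 9 rose and 4 fell from E14.5 to E18.5, where 13.3% of all genes rose and 17.3% fell. Bnip3 was among those that rose (1.46 ± 0.17, and 0.86 with the mean of its rows). Adm, the peptide adrenomedullin, rose by 1.30 ± 0.24 in LEC while in BEC it fell by 1.03, and between these changes the difference was 2.33 ± 0.34, adjusted p = 0.00017.

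The pentose phosphate genes showed no called difference between LEC and BEC in the mean over the ages and came down with age in both. Over the ages, 0 of the 5 measured genes were higher and 0 lower by limma, and 0 and 0 were so at an unadjusted p under 0.05, with differences from -0.06 to 0.12. Of all genes tested, 18.2% were higher and 19.0% lower. From E14.5 to E18.5, 5 of the 5 fell in LEC and 4 in BEC, where 21.2% and 17.3% of all genes tested fell. Among the brighter genes 39.8% fell in LEC and 35.9% in BEC. The BEC call of Pgls, 1 of the 4, was lost under several alternatives given below. Proliferation markers fell over the same span (6 of 7 in LEC and 4 of 7 in BEC, beside the same shares), and their part in these changes was not tested. Tkt, the transketolase that returns pentose carbon to glycolysis, was at 9.97, 9.88 and 9.58 (E14.5), 9.52, 9.58 and 9.63 (E16.5) and 8.14, 7.83 and 8.12 (E18.5) in LEC. BEC arrays were at 9.47, 9.54 and 9.53 (E14.5), 9.50, 9.45 and 9.21 (E16.5) and 8.22, 8.24 and 8.03 (E18.5). In both cell types the E18.5 arrays lay below every earlier array. From E14.5 to E18.5 Tkt fell by 1.78 in LEC (3.44-fold, adjusted p = 2e-09) and by 1.35 in BEC (2.55-fold, adjusted p = 1e-07).

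Taldo1, the transaldolase of the same branch, was at 7.93, 7.74 and 7.79 (E14.5), 7.83, 7.67 and 7.77 (E16.5) and 6.39, 6.55 and 6.57 (E18.5) in LEC and 7.52, 7.73 and 7.67 (E14.5), 7.82, 7.70 and 7.98 (E16.5) and 6.76, 6.66 and 6.44 (E18.5) in BEC. Here too the E18.5 arrays of each cell type were below all earlier ones, and Taldo1 fell by 1.25 in LEC and 1.21 in BEC from E16.5 to E18.5. Pgd, which makes NADPH and ribulose 5-phosphate, fell by 1.12 in LEC and 0.69 in BEC over the whole span. Pgls, the lactonase before it, fell by 0.72 in LEC. Its value in BEC was -0.51 ± 0.18 (adjusted p = 0.042), a call lost without BEC replicate 2 of E14.5 (-0.36), BEC replicate 3 of E14.5 (-0.52), BEC replicate 1 of E16.5 (-0.51), BEC replicate 1 of E18.5 (-0.49), BEC replicate 3 of E18.5 (-0.36), LEC replicate 1 of E14.5 (-0.51), LEC replicate 2 of E14.5 (-0.51) or LEC replicate 1 of E16.5 (-0.51), after quantile normalization (-0.45, adjusted p = 0.095), and in a fit of the compared groups alone (-0.51, adjusted p = 0.067). Rpia, the ribose isomerase, was at 7.57, 7.69 and 7.60 at E14.5 and 7.08, 6.82 and 6.22 at E18.5 in LEC, and at 7.24, 7.20 and 7.18 and 7.17, 7.33 and 7.03 in BEC. The ages did not overlap in LEC and did in BEC. At E18.5 Rpia and Pgd were called lower in LEC, with differences of -0.47 ± 0.15, adjusted p = 0.025, and -0.36 ± 0.11, adjusted p = 0.019, where 15.9% of all genes tested were lower. The Rpia call was lost without BEC replicate 1 of E18.5 (-0.47), BEC replicate 2 of E18.5 (-0.39) or LEC replicate 3 of E18.5 (-0.23), and in a fit of the compared groups alone (-0.47, adjusted p = 0.15). For Pgd it was lost without BEC replicate 1 of E18.5 (-0.28) or LEC replicate 1 of E18.5 (-0.27), with array weights (-0.35, adjusted p = 0.085), and in a fit of the compared groups alone (-0.36, adjusted p = 0.14). Rpia fell by 0.91 in LEC, its change in BEC was -0.03 ± 0.15, and the difference between these was -0.88 ± 0.22, adjusted p = 0.014.

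Of 8 measured neighbouring genes of ribose metabolism, 2 were higher in LEC and 0 lower over the ages by limma (1 lower at an unadjusted p under 0.05). Of all genes tested 18.2% were higher and 19.0% lower, and among 8 genes these counts lie near those shares. H6pd, the form of the first pathway enzyme that lies in the endoplasmic reticulum, was higher by 1.23 ± 0.08 (adjusted p = 4e-10). Prps1 and Prps2, which make the ribose donor of nucleotides, fell in LEC by 1.19 and 0.81 and in BEC by 0.87 and 0.62 from E14.5 to E18.5. Tktl1, of the same list, rose in LEC over that span.

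Serine synthesis and one-carbon genes were in part higher in LEC, and most of them fell in both cell types. Over the ages 4 of the 8 genes were higher in LEC and 0 lower by limma (0 lower at an unadjusted p under 0.05). Of all genes tested 18.2% were higher and 19.0% lower, and of the brighter genes 28.3% and 30.8%. The call of Psph, 1 of these 4, was lost under several alternatives given below. With age 7 of the 8 fell in LEC and 7 in BEC, where 21.2% and 17.3% of all genes tested fell. Among the brighter genes 39.8% fell in LEC and 35.9% in BEC. Phgdh, the dehydrogenase that opens the pathway, was at 8.29, 8.27 and 8.30 (E14.5), 7.45, 7.20 and 7.44 (E16.5) and 5.18, 5.72 and 5.73 (E18.5) in LEC. BEC arrays gave 7.09, 6.17 and 6.64 (E14.5), 5.90, 5.86 and 5.98 (E16.5) and 5.46, 5.63 and 5.38 (E18.5). LEC arrays were the higher ones at E14.5 (1.65 ± 0.18, adjusted p = 8.5e-07, 3.15-fold) and at E16.5 (1.45 ± 0.18, adjusted p = 2.7e-06), and at E18.5 the difference was 0.06 ± 0.18 (adjusted p = 0.84). From E14.5 to E18.5 it changed by -2.74 ± 0.18 in LEC (6.7-fold), the largest fall in the set, and by -1.15 ± 0.18 in BEC (2.21-fold).

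Psat1, the aminotransferase of the second step, was at 9.86, 9.77 and 9.85 (E14.5), 9.41, 9.50 and 9.52 (E16.5) and 8.28, 8.68 and 8.61 (E18.5) in LEC and 9.25, 9.13 and 9.38 (E14.5), 9.15, 9.06 and 9.17 (E16.5) and 8.23, 8.23 and 8.39 (E18.5) in BEC. LEC arrays were above BEC arrays at E14.5 and E16.5 and overlapped them at E18.5. The mean difference was 0.39 ± 0.06, adjusted p = 4.5e-05, and with age it fell by 1.30 in LEC and 0.97 in BEC. Psph, the phosphatase that releases serine, fell by 0.86 in LEC and 0.59 in BEC. Its difference between the cell types over the ages was 0.19 ± 0.07 (adjusted p = 0.044), a call lost without any 1 of 11 of the 18 arrays (0.15 to 0.19), all but LEC replicate 2 of E14.5, LEC replicate 3 of E14.5, LEC replicate 2 of E16.5, LEC replicate 1 of E18.5, BEC replicate 1 of E14.5, BEC replicate 3 of E16.5, BEC replicate 3 of E18.5, after quantile normalization (0.17, adjusted p = 0.071), and with a trend and robust variance (0.19, adjusted p = 0.062).

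Serine gives its carbon to folate through the hydroxymethyltransferases. Shmt1, the cytosolic form, measured 7.95, 7.68 and 7.84 (E14.5), 7.51, 7.28 and 7.33 (E16.5) and 6.70, 7.25 and 7.15 (E18.5) in LEC, and 7.16, 7.05 and 7.28 (E14.5), 6.91, 6.86 and 6.63 (E16.5) and 5.91, 6.40 and 6.46 (E18.5) in BEC. LEC arrays were above BEC arrays at each age, by 0.67 ± 0.09, adjusted p = 4.7e-06 on average. Shmt2, the mitochondrial form, differed by 0.04 ± 0.08 over the ages (adjusted p = 0.74) and fell by 1.28 in LEC and 1.12 in BEC. Whether the forms differ from each other in this respect was not tested.

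Mthfd2, the mitochondrial folate enzyme known for its high level in embryonic and dividing cells, was at 7.69, 7.43 and 7.51 (E14.5), 6.93, 6.87 and 6.90 (E16.5) and 6.01, 5.61 and 5.80 (E18.5) in LEC. BEC arrays gave 7.30, 7.04 and 7.27 (E14.5), 6.67, 7.14 and 6.88 (E16.5) and 6.27, 6.11 and 6.001 (E18.5). In each cell type the E18.5 arrays were all below the E14.5 arrays, with changes of -1.74 in LEC (3.34-fold) and -1.08 in BEC (2.11-fold). Mthfd1, the cytosolic enzyme, fell by 1.02 in LEC and 0.89 in BEC. Aldh1l2 was at or below the dim mark of 4.709 on 17 of 18 arrays and its values carry no order.

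Of 15 other measured genes of the folate and glycine cycles, 7 were higher in LEC and 3 lower over the ages, against 18.2% and 19.0% of all genes tested. Aldh1l1, a cytosolic folate dehydrogenase (1.28 ± 0.07), Amt of the glycine cleavage system (1.21 ± 0.07) and the serine transporter Sfxn1 (0.89 ± 0.06) were among the higher, and Sfxn3 (-0.79 ± 0.07) among the lower. With age 7 fell in LEC and 9 in BEC, where 21.2% and 17.3% of all genes fell, with Atic, which ends purine synthesis, at -1.55 and -1.59. Others of this list rose over that span, Sfxn3 and Srr in both cell types and Aldh1l1 in LEC among them. Of 17 measured genes of the amino acid response, which the factor ATF4 is known to drive, 5 were higher and 8 lower in LEC, again beside 18.2% and 19.0% of all genes. The transporter pair Slc7a5 (2.29 ± 0.12) and Slc3a2 (0.71 ± 0.07) and the pseudokinase Trib3 (0.97 ± 0.09) were higher, and the neutral amino acid carriers Slc1a5 (-0.58 ± 0.06) and Slc1a4 (-0.57 ± 0.07) lower. With age 8 of these fell in LEC and 7 in BEC, beside the same shares of all genes that fell, with Asns, which makes asparagine, at -1.17 in LEC. Others of this list rose, Slc3a2 in LEC and Ddit3 in BEC among them.

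The split between the cell types was then taken age by age. At E14.5, 10 of the 34 genes were higher in LEC and 5 lower, where 8.60% and 7.94% of all genes tested were, and with array weights the count of 15 was 23. At E16.5, 12 were higher and 7 lower, against 13.0% and 12.2%. At E18.5, 7 were higher and 11 lower, against 14.6% and 15.9%. Among the brighter genes 17% were higher and 15.6% lower at E14.5, beside 15 and 5 of their 30 members. These values were 20.2% and 23% beside 10 and 6 at E16.5, and 23% and 26.4% beside 5 and 12 at E18.5. Genes called lower in LEC at E18.5 and not at the earlier ages included Pfkm (-0.56 ± 0.10), Pfkp (-0.57 ± 0.12) and Pgam1 (-0.48 ± 0.12). The Pgam1 call was lost in a fit of the compared groups alone (-0.48, adjusted p = 0.072). The change from E14.5 to E18.5 differed between the cell types for Pfkm in the test given below, and for Pfkp the value was -0.39 ± 0.18 (adjusted p = 0.21).

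Across the whole span in LEC, 24 members fell and 3 rose, with a median of -0.89 against 0.04 over all genes tested, of which 21.2% fell and 19.7% rose. In BEC 21 fell and 4 rose, with a median of -0.53 against 0.04, where 17.3% and 13.3% of all genes did. Members are mostly bright genes, and the set was also read against the 9969 genes whose mean lies above the median of all gene means. Among those 39.8% fell in LEC with a median of -0.12, and 25 of the 30 members there fell with a median of -0.93. In BEC the corresponding values were 35.9% and -0.11, and 22 members with -0.57.

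More members were called as falling in the second step than in the first, and the same held over all genes tested. The share of all genes that fell went from 5.72% to 18.5% in LEC and from 4.66% to 16.4% in BEC. For BEC the count of members in the first step moved with the setting. From E14.5 to E16.5 in LEC, 8 members fell and 4 rose (5.72% and 8.07% of all genes), and 6 of those 8 belong to the serine and one-carbon branch, where Phgdh fell by 0.92, Shmt2 by 0.76 and Mthfd2 by 0.65. That count of 12 came to 6 without LEC E14.5 replicate 1, 7 without LEC E14.5 replicate 3 and 7 without LEC E16.5 replicate 1. From E16.5 to E18.5 in LEC, 23 fell and 3 rose (18.5% and 15.9%). In BEC, 6 fell and 1 rose in the first step (4.66% and 5.10%) and 12 fell and 2 rose in the second (16.4% and 15.8%). The BEC count of 7 for the first step was 1, 2 and 3 without BEC E14.5 replicates 1, 2 and 3, and 3, 1 and 2 without BEC E16.5 replicates 1, 2 and 3, in turn. With the arrays set to a common median it was 3 rising and 3 falling. Other settings raised it: 8 fell with brighter genes only (12 called), 13 with array weights (17 called), 7 with a trend and robust variance (11 called), 9 in a fit of the compared groups alone (11 called) and 11 without the E18.5 arrays (15 called).

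**Figure D3:**
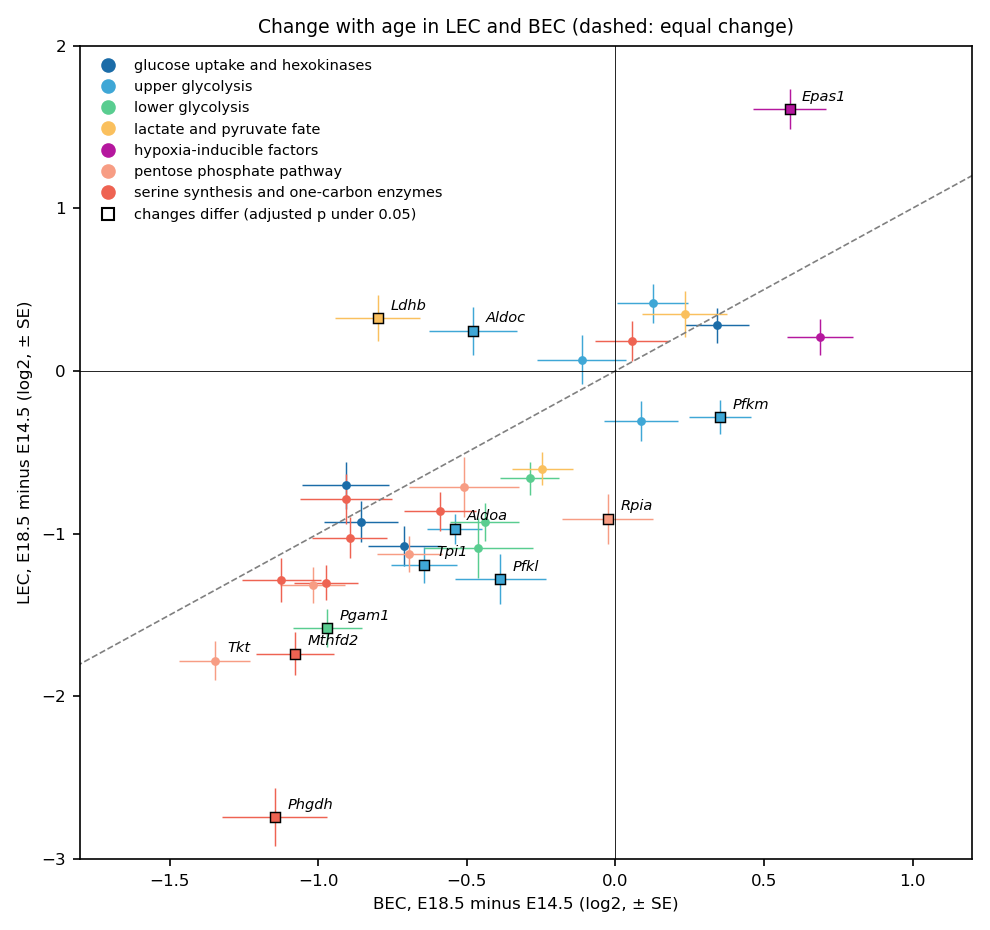
Change from E14.5 to E18.5 in LEC (vertical) against that in BEC (horizontal), in log2 units, 1 point per measured gene, with standard errors and a dashed line of equal change; squares mark genes whose changes differ (adjusted p under 0.05). Most genes lie below 0 on both axes; Phgdh lies at -2.74 in LEC and -1.15 in BEC, and Epas1 lies above 0 on both.

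The change with age differed between LEC and BEC for 11 of the 34 members from E14.5 to E18.5, 8 of them more negative in LEC and 3 more positive, against 3.83% and 5.02% of all genes tested. Phgdh was first, with a difference of -1.60 ± 0.25, adjusted p = 0.00034. Pfkl (-0.89 ± 0.21, adjusted p = 0.012), Rpia (-0.88 ± 0.22) and Pfkm (-0.64 ± 0.15) also changed more negatively in LEC, and Epas1 more positively (1.02 ± 0.17, adjusted p = 0.00064). Pfkm was at 7.49, 7.62 and 7.50 at E14.5 and 7.29, 7.33 and 7.13 at E18.5 in LEC, and at 7.39, 7.43 and 7.57 and 7.60, 7.88 and 7.96 in BEC, lower at the later age in every LEC array and higher in every BEC array. The count of 11 came to 6 without LEC E14.5 replicate 1, 6 without LEC E14.5 replicate 3, 7 without BEC E14.5 replicate 2 and 7 without BEC E18.5 replicate 2. The other members among the 11 were Ldhb and Aldoc, more positive in LEC, and Aldoa, Tpi1, Pgam1 and Mthfd2, more negative, and of these 6 the calls of all but Ldhb were lost when certain single arrays were left out. Between E14.5 and E16.5 the change of 1 member, Aldoc, differed and was more positive in LEC (1.89% of all genes), a call lost without any of several single arrays, and by limma 0 were more negative (0.742%; 1 at an unadjusted p under 0.05). Between E16.5 and E18.5, 5 (Phgdh, Eno2, Pfkm, Tpi1 and Aldoa) were more negative (2.12%) and 1 (Ldhb) more positive (1.53%), a count of 6 that was 3 without LEC E16.5 replicate 1.

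Markers of other cells and of division moved along the same axes. Summed over the 12 macrophage markers, the linear signal in LEC arrays was 1840 to 1920 at E14.5, 2740 to 5760 at E16.5 and 6500 to 10100 at E18.5, and in BEC 528 to 601, 418 to 486 and 504 to 690. In BEC at E18.5 the macrophage markers Adgre1, Fcgr3 and Aif1 were all dim. The 8 mural markers in BEC summed to 559 to 614 at E14.5 and 3270 to 4120 at E18.5, and in LEC to 495 to 560 at E14.5 and 450 to 689 at E18.5. The 8 keratinocyte and epithelial markers summed to 436 to 499 at E14.5 and 1670 to 2850 at E18.5 in LEC and to 274 to 298 at E14.5 and 522 to 806 at E18.5 in BEC.

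Proliferation markers fell beside the biosynthetic branches: 6 of 7 in LEC and 4 of 7 in BEC from E14.5 to E18.5, where 21.2% and 17.3% of all genes tested fell. Their summed signals were 7830 to 8360 and 5500 to 5930 in LEC and 7370 to 7830 and 6130 to 6320 in BEC. All 6 lymphatic markers fell in BEC over the same span, with a median of -1.84, while the summed blood endothelial markers in LEC went up as given beside Epas1. The 4 platelet markers summed to 166 to 182 at E14.5 and 484 to 700 at E18.5 in LEC, where 3 rose, and to 305 to 321 and 164 to 174 in BEC, where 4 fell. Mast cell markers, higher in LEC by a median of 2.68, summed to 8400 to 11800 at E14.5 and 12500 to 16800 at E18.5 in LEC, and to 2120 to 3840 and 909 to 3180 in BEC. These lists run in parallel with the differences between cell types and with the age changes of the set, and their part in either was not tested.

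**Figure D4:**
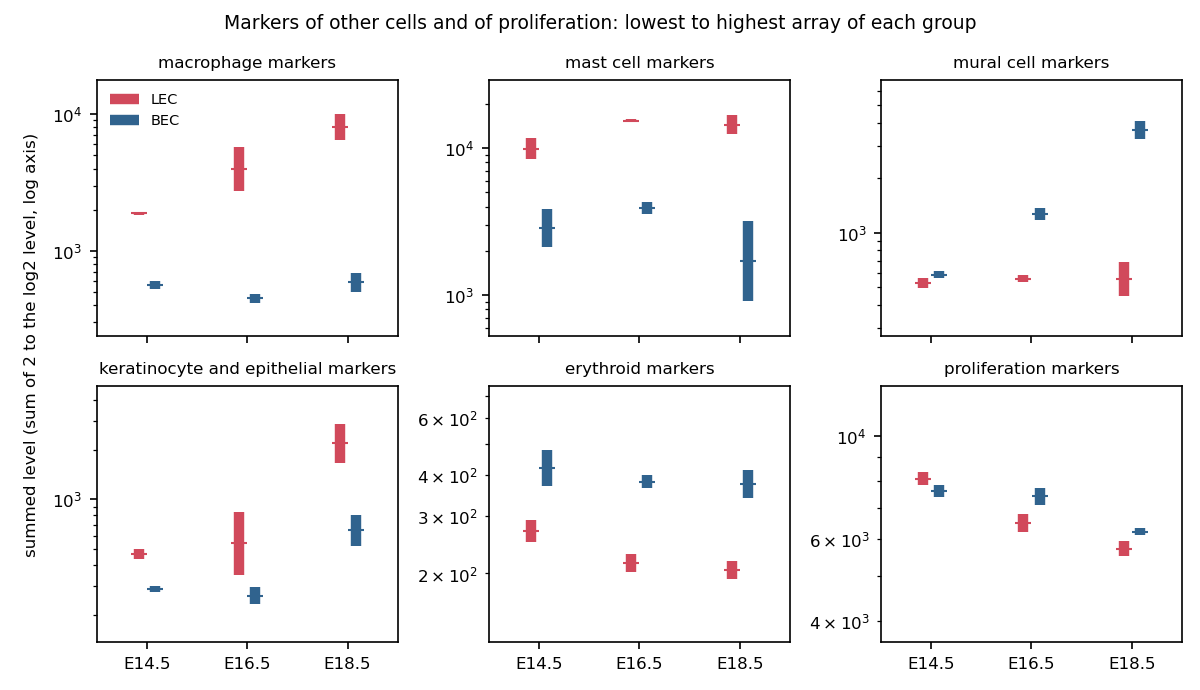
Summed linear signal of marker lists (vertical, log scale) by group, with bars from the lowest to the highest of 3 arrays and a tick at the middle of each bar. Macrophage markers in LEC lie at 1840 to 1920 at E14.5 and 6500 to 10100 at E18.5, mural markers in BEC lie at 559 to 614 at E14.5 and 3270 to 4120 at E18.5, and proliferation markers come down in both.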

How the data were processed

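Total RNA of 18 samples was hybridised to Affymetrix mouse gene arrays. The deposited log2 values come from RMA (background correction, quantile normalization and summary of probes) in oligo 1.54.1, run by the authors per the submitters' processing notes. Joint normalization of all arrays is not stated in the labels. The table held 35556 rows, of which 21789 had 1 gene symbol in the platform annotation, 1621 several and 12146 none, and only the first kind was tested. The reference gene table held the Entrez identifiers of 21698 rows, and 0 symbols differed there. Where a gene had several rows (999 genes) its row of highest mean was kept, giving 19938 genes, dim ones included.

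Group means of 6 groups were fitted with limma 3.58.1 in R 4.3.3 (lmFit and eBayes, 12 residual and 6.11 prior degrees of freedom, no block) and 13 contrasts were taken. Two-sided p-values were adjusted by the Benjamini-Hochberg method within each contrast, over all genes, and called at adjusted p under 0.05. Differences are given with standard errors. Arrays have no depth, and precision rests on 3 arrays a group.

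Genes described were all measured members, with array values for those with the largest called differences in each branch, and up to 3 called genes in each direction of each related list. A level at or below 4.709, the 95th percentile of the values of 1027 olfactory receptor genes, was called dim, a mark chosen after the data were seen. The members, lists and motifs were chosen with earlier results of these data known, so counts over them support nothing on their own. Alternatives were a replicate block, other scalings, a filter on dim genes, array weights, another variance model, other rows for a gene, fewer groups and each array left out; the row with a RefSeq mRNA was added after the data were seen. Promoter sequences are from RefSeq.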

Additional observations from a re-analysis of the deposited data

Results flagged for a closer look

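Age changes that differed between LEC and BEC by limma's interaction test (adjusted p under 0.05) are listed here with their values, LEC minus BEC, as the quantity that brought them forward, and no explanation was weighed. From E14.5 to E18.5 the difference was -1.60 for Phgdh, -0.89 for Pfkl, -0.88 for Rpia, -0.64 for Pfkm, 1.02 for Epas1 and 1.12 for Ldhb. From E16.5 to E18.5 it was -1.39 for Phgdh and 1.27 for Ldhb. The Ldhb values belong to its brighter row, and the other row gave no call. The E16.5 to E18.5 value of Pfkm, -0.69, was lost in a fit of the compared groups alone (-0.69, adjusted p = 0.058).

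The values below lost their call when single arrays were left out, and each left-out array is named. Mthfd2 from E14.5 to E18.5, -0.66, was lost without BEC replicate 2 of E14.5 (-0.58), BEC replicate 1 of E18.5 (-0.59), BEC replicate 2 of E18.5 (-0.67), LEC replicate 1 of E14.5 (-0.59), LEC replicate 3 of E14.5 (-0.68), LEC replicate 2 of E18.5 (-0.56) or LEC replicate 3 of E18.5 (-0.66), and with array weights (-0.63, adjusted p = 0.06). Pgam1, -0.61, was lost without BEC replicate 1 of E14.5 (-0.58), BEC replicate 2 of E14.5 (-0.59), BEC replicate 2 of E18.5 (-0.52), BEC replicate 3 of E18.5 (-0.56), LEC replicate 1 of E14.5 (-0.60), LEC replicate 3 of E14.5 (-0.60) or LEC replicate 2 of E18.5 (-0.56), and in a fit of the compared groups alone (-0.61, adjusted p = 0.062). Aldoc, 0.73, was lost without BEC replicate 1 of E14.5 (0.62), BEC replicate 1 of E18.5 (0.66), BEC replicate 2 of E18.5 (0.76), LEC replicate 1 of E14.5 (0.70), LEC replicate 3 of E14.5 (0.68) or LEC replicate 3 of E18.5 (0.53), with array weights (0.71, adjusted p = 0.051), and in a fit of the compared groups alone (0.73, adjusted p = 0.063), and its E14.5 to E16.5 value, 0.92, was lost without BEC replicate 1 of E14.5 (0.82), BEC replicate 1 of E16.5 (0.89), LEC replicate 1 of E14.5 (0.89), LEC replicate 3 of E14.5 (0.88) or LEC replicate 3 of E16.5 (0.83). Of its 9 BEC values, 3 are dim.

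Tpi1 from E14.5 to E18.5, -0.55, was lost without BEC replicate 1 of E14.5 (-0.56), BEC replicate 2 of E14.5 (-0.52), BEC replicate 3 of E14.5 (-0.55), BEC replicate 2 of E18.5 (-0.54), BEC replicate 3 of E18.5 (-0.50), LEC replicate 1 of E14.5 (-0.53), LEC replicate 3 of E14.5 (-0.52), LEC replicate 1 of E18.5 (-0.44) or LEC replicate 2 of E18.5 (-0.52), and in a fit of the compared groups alone (-0.55, adjusted p = 0.086). Its E16.5 to E18.5 value, -0.67, was lost without BEC replicate 1 of E16.5 (-0.62) or LEC replicate 1 of E16.5 (-0.67), and in a fit of the compared groups alone (-0.67, adjusted p = 0.083). Eno2 from E16.5 to E18.5, -1.03, was lost without BEC replicate 2 of E16.5 (-0.99), BEC replicate 3 of E16.5 (-0.98), BEC replicate 1 of E18.5 (-0.90), BEC replicate 3 of E18.5 (-0.96), LEC replicate 1 of E16.5 (-1.03), LEC replicate 2 of E16.5 (-1.04), LEC replicate 3 of E16.5 (-1.02), LEC replicate 2 of E18.5 (-1.06) or LEC replicate 3 of E18.5 (-0.84), after quantile normalization (-0.90, adjusted p = 0.066), with array weights (-1.03, adjusted p = 0.068), and in a fit of the compared groups alone (-1.03, adjusted p = 0.071). Aldoa from E14.5 to E18.5, -0.43, was lost without any 1 of 16 of the 18 arrays (-0.47 to -0.39), all but LEC replicate 3 of E18.5, BEC replicate 1 of E18.5, with array weights (-0.45, adjusted p = 0.063), and in a fit of the compared groups alone (-0.43, adjusted p = 0.1). Its E16.5 to E18.5 value, -0.48, was lost without any 1 of 16 of the 18 arrays (-0.53 to -0.44), all but LEC replicate 3 of E18.5, BEC replicate 1 of E18.5, with array weights (-0.46, adjusted p = 0.12), and in a fit of the compared groups alone (-0.48, adjusted p = 0.15).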

How the results depend on the processing

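Of 201 called differences of members, 151 kept their call under every alternative tried, 50 lost it in at least 1 and 2 reversed, both Hk1. With the row that has a RefSeq mRNA, Hk1 went to -0.78 in LEC and -0.066 in BEC from E14.5 to E18.5, and with the mean of its rows to -0.25 in LEC; the rows share a symbol, not their accessions. Counts of members called moved by over 1.5 times for BEC from E14.5 to E16.5 (7): 12 with brighter genes only, 17 with array weights, 11 with a trend and robust variance, 11 in the compared groups alone and 15 without the E18.5 arrays. Aldoc, the 1 member whose age change from E14.5 to E16.5 differed, does not belong to the brighter genes and could not be counted among them. The count of differing age changes from E14.5 to E16.5 (1) was 0 with brighter genes only and 2 with array weights, in the compared groups and without E18.5. From E16.5 to E18.5 (6) it was 10 with a trend and robust variance and 2 in the compared groups, and from E14.5 to E18.5 (11) 7 in the compared groups. LEC minus BEC at E14.5 (15) was 23 with array weights. The cause was not tested. A common median turned BEC from E16.5 to E18.5 from 2 rising and 12 falling to 0 and 20. With 1 array left out, counts ran 19 to 21 for LEC minus BEC over the ages, 14 to 16, 16 to 20 and 15 to 18 at the 3 ages, 6 to 14, 24 to 26 and 25 to 28 for LEC from E14.5 to E16.5, E16.5 to E18.5 and E14.5 to E18.5, 1 to 10, 11 to 17 and 22 to 27 for BEC, and 0 to 1, 3 to 7 and 6 to 10 for the differences of age changes; the report names arrays behind shifts of over 1.5 times, and for the 1 member of E14.5 to E16.5, Aldoc, they are named above.

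Deviations of LEC and BEC arrays with the same number correlated at r = -0.107 to 0.13, and those with different numbers at -0.176 to 0.159, so the numbers were not taken as pairs. With the replicate block the counts were 20 over the ages, 15, 18 and 17 at each age, and 1, 6 and 9 for the age changes. It ended 5 calls: Aldoa at E16.5 and in both differences of age changes, Pgd at E18.5 and Pgam1 in the difference of age changes. Among the members, only Aldh1l2 and Aldoc had values at or below the dim mark of 4.709, and signal over background limits both. Other members came near the mark without reaching it. The lowest array was at 4.735 for Ldhb (LEC E16.5), 4.865 for Eno2 (BEC E18.5) and 5.049 for Pfkfb4 (LEC E14.5). Phgdh at E18.5 went down to 5.182 in LEC and 5.377 in BEC. How far background limits the differences given for Ldhb, Eno2, Pfkfb4 and Phgdh was not tested.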
